A study of Homo sapiens and Mus musculus with 61 samples.

Results

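The BCR and ABL1 intervals are the stretches of chromosome 22 (22500000 to 23700000, 1.2 Mb) and chromosome 9 (133500000 to 134100000, 0.6 Mb) that hold the genes fused in the K562 line. Coordinates are those of hg19, counted from 1. Every listed 300 bp region whose centre lay in either interval was taken from 17 tables, each of which compared 1 guide RNA, or 1 pool of guides, with the sgGal4 control. This gave 260 of 143198 entries (0.182%), 199 in the BCR interval and 61 in the ABL1 interval. They came from 108 of 91133 distinct windows, and merging windows that overlapped by at least 1 bp left 45 loci of 44682. Within these bounds the regions were taken by position only and no measured value, but the bounds were chosen with earlier results of these data known.

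K562 is a human chronic myeloid leukaemia line of erythroid character, and its Philadelphia chromosome joins BCR to ABL1. BCR encodes a protein with GTPase-activating and kinase domains, and ABL1 a tyrosine kinase; the fusion protein is a constantly active kinase. In K562 the fusion is known to be present in extra copies, together with DNA on either side, which includes the immunoglobulin lambda light chain locus (IGL), PRAME and RSPH14 on chromosome 22 and NUP214 on chromosome 9. The number of copies was not measured in these data, so its part in any level given here was not tested.

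The assay was CAPTURE-ChIP-seq, in which a biotin-tagged inactive Cas9 (dCas9) is recovered together with the DNA it binds. All groups were K562 cells that carried this dCas9. In the guide group a guide RNA was aimed at the beta-globin cluster on chromosome 11, none of it in the intervals described here. The guides were sgHS1 to sgHS5 for the hypersensitive sites of the locus control region, sgHBG, sgHBB and sgHBD-1kb for globin genes or a site near one, sg3'HS1 for the hypersensitive site at the other end, further guides marked sg2 to 7 of these targets, and the pool sgHS1-5. In the control group the guide was sgGal4, a guide with no human site as its target. There were 42 guide libraries, from 1 to 6 per table, and 4 sgGal4 libraries that every table shares. The labels do not say that replicates came from separate cultures, so a p-value here reflects library-to-library spread, perhaps only technical, and like values in several tables are not independent. The total of recovered reads in the listed regions of a table lay between 7127 and 432553 in guide libraries, between 41128 and 169968 in sgGal4 replicates 1 and 2, and between 6499 and 18647 in the shallower sgGal4 replicates 3 and 4.

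The windows that the results below turn on are shown first, 5' to 3' on the plus strand of GRCh37 (hg19): the pair of sgHS5 windows with the highest ratios, 3 of the 4 raised windows and the window with the lowest ratio. In the pair listed for sgHS5 and the 1 in intron 1 of BCR, capitals mark the longest runs followed by NGG (the motif that Cas9 needs beside its target), NGG included, on either strand, that are shared with the on-target window of the same guide.
sgHS5 window, chromosome 22, 22757814 to 22758113: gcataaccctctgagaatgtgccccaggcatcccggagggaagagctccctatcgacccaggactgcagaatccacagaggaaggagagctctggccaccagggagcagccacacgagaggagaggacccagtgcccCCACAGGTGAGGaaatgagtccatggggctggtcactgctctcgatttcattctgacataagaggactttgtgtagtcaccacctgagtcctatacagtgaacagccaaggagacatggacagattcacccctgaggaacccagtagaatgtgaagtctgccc
sgHS5 window in RSPH14, chromosome 22, 23480187 to 23480486: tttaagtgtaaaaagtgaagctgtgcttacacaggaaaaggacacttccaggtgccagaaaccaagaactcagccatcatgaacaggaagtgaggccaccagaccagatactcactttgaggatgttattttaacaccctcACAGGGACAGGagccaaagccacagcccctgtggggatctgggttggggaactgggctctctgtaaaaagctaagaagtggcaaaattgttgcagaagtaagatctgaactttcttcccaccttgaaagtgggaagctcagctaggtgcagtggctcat
sgHBD-1kb window in BCR, chromosome 22, 23593877 to 23594176: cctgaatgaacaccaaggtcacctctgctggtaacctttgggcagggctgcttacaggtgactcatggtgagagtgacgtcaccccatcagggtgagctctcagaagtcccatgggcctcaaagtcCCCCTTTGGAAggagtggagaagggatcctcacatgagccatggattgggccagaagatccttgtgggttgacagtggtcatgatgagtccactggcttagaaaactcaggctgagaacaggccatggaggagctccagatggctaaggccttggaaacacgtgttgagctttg
In the sgHBG window, capitals mark the 153 bases that also lie in the window listed for sgHS3-sg2.
sgHBG window, chromosome 22, 22978827 to 22979126: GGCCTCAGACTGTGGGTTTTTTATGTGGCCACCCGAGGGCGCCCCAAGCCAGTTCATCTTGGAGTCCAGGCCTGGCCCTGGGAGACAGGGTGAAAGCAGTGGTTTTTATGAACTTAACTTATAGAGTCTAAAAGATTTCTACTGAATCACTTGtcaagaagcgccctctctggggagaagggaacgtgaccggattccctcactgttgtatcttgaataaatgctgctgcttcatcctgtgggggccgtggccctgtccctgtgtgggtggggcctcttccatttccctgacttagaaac
In the window beside the ABL1 start and in the window with the lowest ratio, capitals mark CG dinucleotides.
ABL1 start window, chromosome 9, 133587981 to 133588280: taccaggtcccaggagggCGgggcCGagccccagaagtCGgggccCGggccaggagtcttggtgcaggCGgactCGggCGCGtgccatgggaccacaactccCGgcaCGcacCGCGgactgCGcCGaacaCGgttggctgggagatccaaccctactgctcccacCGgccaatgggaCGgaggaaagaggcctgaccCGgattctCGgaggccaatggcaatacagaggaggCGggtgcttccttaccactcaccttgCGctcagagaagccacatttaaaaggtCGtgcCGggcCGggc
Lowest window, chromosome 22, 23331647 to 23331946: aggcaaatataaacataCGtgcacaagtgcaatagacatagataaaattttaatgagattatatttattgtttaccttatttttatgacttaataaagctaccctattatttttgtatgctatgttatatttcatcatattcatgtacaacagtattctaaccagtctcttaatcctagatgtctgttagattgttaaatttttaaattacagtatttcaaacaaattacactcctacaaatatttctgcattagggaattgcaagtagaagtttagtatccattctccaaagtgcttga

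How often the tables listed the intervals depended on which loci were counted. All 45 interval loci together came to 25.0 per Mb, against 16.03 per Mb in the rest of chromosomes 22 and 9 and 16.3 per Mb in the rest of the autosomes. The density was 1.56 times that of the rest of the same chromosomes (95% exact binomial interval 1.13 to 2.09, counting error only). It was lower than in the flanks, stretches as long as each interval on both of its sides, which held 29.6 loci per Mb. The ABL1 interval alone, with 8 loci, had 13.3 per Mb, against 13.6 per Mb in the rest of chromosome 9, a density 0.981 times as high. The BCR interval, with 37 loci, had 30.8 per Mb, against 24.7 per Mb in the rest of chromosome 22, or 1.25 times. Both lay under the pooled 1.56. Chromosome 9, with fewer loci per Mb, made up 119.5 of the 153.2 Mb of the pooled rest. The pooled 1.56 and its binomial interval thus do not measure an excess of each interval over its own chromosome.

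Loci that all 17 tables listed were denser in the intervals. Of the 45 interval loci, 12 (26.7%) were in every table, 9 of them in the BCR interval and 3 in the ABL1 interval, against 8.36% of all other loci. They came to 6.67 per Mb, against 1.39 per Mb in the rest of chromosomes 22 and 9, 1.45 in the flanks and 1.38 in the rest of the autosomes, a density 4.80 times that of the rest of the same chromosomes. With the bounds drawn in by 100 kb on each side, 6 of these loci were left, at 4.29 per Mb, and the density was 3.08 times that of the rest. The BCR interval (7.50 per Mb) and the ABL1 interval (5.00 per Mb) both lay above the rest of their own chromosomes (1.84 and 1.26 per Mb). These were 4.08 and 3.96 times as dense, both under the pooled 4.80. The right flank of the ABL1 interval, with 3 such loci, also had 5.00 per Mb. Of the other 33 interval loci, 21 were in 1 table and 12 in 2 to 5 tables. The 12 loci in all tables supplied 204 of the 260 entries. No source used here names the method that chose the listed windows.

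**Figure D1:**
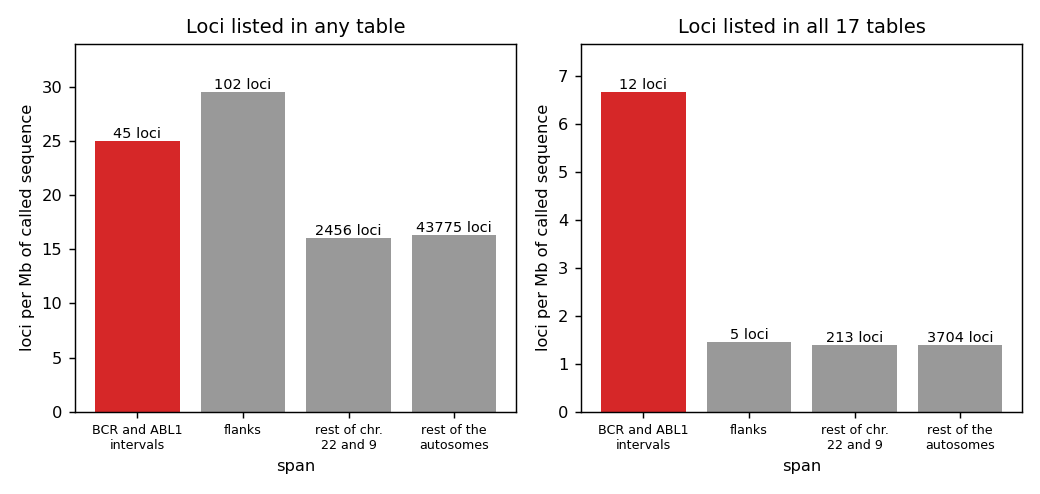
Loci per Mb of genome sequence with called bases in the BCR and ABL1 intervals, in flanks of the same length, in the rest of chromosomes 22 and 9 and in the rest of the autosomes, with the number of loci above each bar. For loci in any table (left) the intervals, at 25.0 per Mb, lie under the flanks at 29.6, and for loci in all 17 tables (right) they lie at 6.67, against 1.45 in the flanks.

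In the sgGal4 libraries, where no human site is the intended target, the interval regions held more reads than the other regions of the same tables. Mean reads per interval region were 2.35, 2.38, 3.06 and 3.06 times the mean of the other regions in sgGal4 replicates 1 to 4 (median over the 17 tables), 2.71 ± 0.40 in all (SD, n = 4 libraries). With the median in place of the mean the fold was 2.31. In the guide libraries the same fold had a median of 1.94 and ran between 0.968 and 6.40, above 1 in 41 of 42 libraries. On the deposited log2 levels, the median interval region lay above the median other region in 37 of 42 guide libraries, with a median difference of 0.67, and in 4 of 4 sgGal4 libraries, with 0.82 ± 0.23 (SD). The highest guide fold, 6.40 in a library of sgHS5, came with the windows at 22757814 and 23480187 of chromosome 22, and without them the 3 sgHS5 libraries had folds of 2.02, 2.24 and 2.35. The library with a fold below 1 (0.968) was the only one of sgHBB.

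Over all listed regions the folds of the guide libraries were mostly under those of sgGal4, and at the loci in all tables the order turned. Over all regions the mean guide fold was below the mean sgGal4 fold in 14 of 17 tables, and in 10 tables every guide library lay below every sgGal4 library. At the loci in all tables the guide fold had a median of 3.26 and ran between 2.15 and 4.39, against 2.42 ± 0.58 in the sgGal4 libraries (SD, n = 4). There the guide mean was below the sgGal4 mean in 0 of 17 tables, and in 9 tables every guide library lay above every sgGal4 library. The deposited log2 levels at these loci showed the same order, with a median difference of 1.21 in guide libraries and a mean of 0.71 ± 0.14 in sgGal4 libraries (SD). The 4 sgGal4 libraries did not lie together in this measure, since replicates 1 and 2 had folds of 1.89 and 1.94 and the shallower replicates 3 and 4 had 2.92 and 2.90. Tables also list windows found in no other table, and a locus could be listed in all tables through the shared sgGal4 reads, which enter the sgGal4 fold itself. Both change the set of other regions, so the order of guide and sgGal4 folds is a description only, and the part of the listing in it was not tested.

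**Figure D2:**
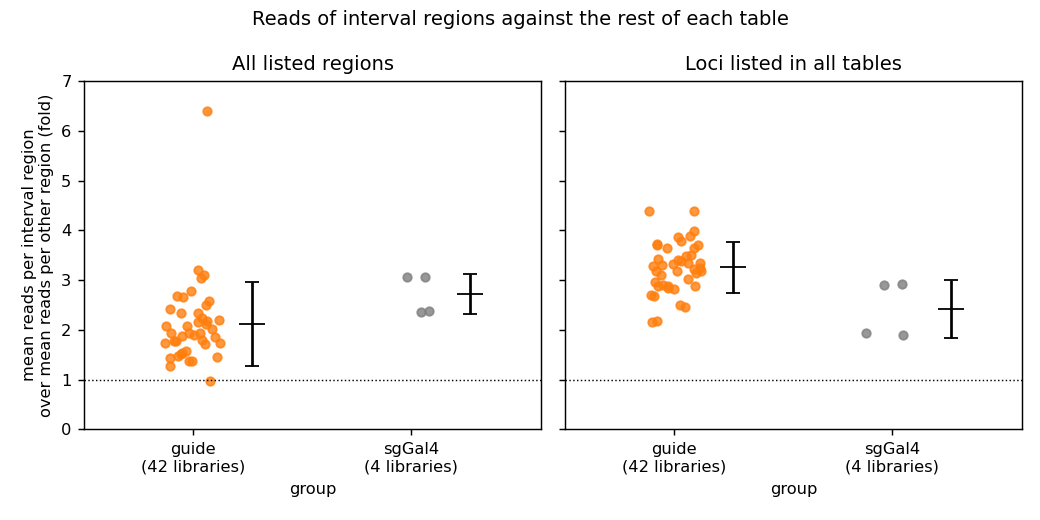
Mean reads per interval region divided by mean reads per other region of the same table, 1 point per library, with mean and SD beside the points; sgGal4 points are medians over the 17 tables. Over all listed regions (left) guide libraries have a median of 1.94 against a mean of 2.71 in sgGal4, and at loci listed in all tables (right) a median of 3.26 against a mean of 2.42.

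Reads in sgGal4 were not the same along the chromosomes. The 37 loci of the BCR interval had a median of 34 sgGal4 reads, summed over the 4 libraries, against 25 for 40 loci of the left flank and 6 for 31 loci of the right flank. No locus of the right flank had more than 19 reads, while the left flank reached 105 and the interval 180.5. Beside ABL1, the 8 interval loci had a median of 41.5 reads, against 8.5 for 12 loci of the left flank and 10 for 19 loci of the right flank. The right flank of BCR thus had the fewest reads per locus of all the spans compared.

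**Figure D3:**
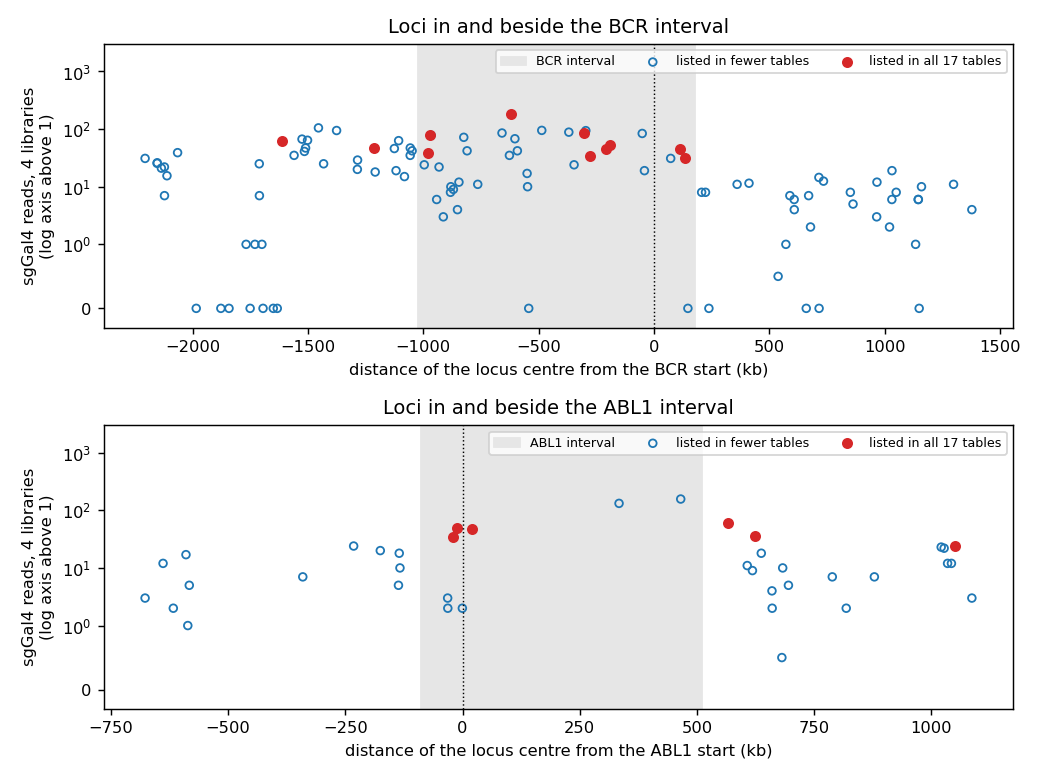
Recovered sgGal4 reads summed over the 4 libraries (log axis above 1) against the distance of each merged locus from the start of BCR or ABL1 in kb; the grey band is the interval and filled points are loci listed in all 17 tables. Loci right of the BCR interval stay at 19 reads or fewer, while those inside it reach 180.5.

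Among the loci in all tables, those of the intervals stood high in sgGal4 reads. Their median was 47 reads, with a range of 31 to 180.5, against 28 for the 3733 other loci in all tables and also 28 for the 213 of them on chromosomes 22 and 9. The locus with most reads lay at the start of PRAME, the gene of a tumour antigen that represses retinoic acid receptor signalling (22901523 to 22901866). Where windows of several tables overlap, the reads of a locus are medians over them. It had 50, 112.5, 7 and 11 reads in sgGal4 replicates 1 to 4 and stood above 99.9% of the other loci in all tables. Distances are from the centre of the window, or of the first window of a locus, to the nearest annotated transcript start. Next came a locus 3072 bp from the variable segment IGLV3-1 (23219665 to 23219976), with 86.5 reads, and one 336 bp from IGLV6-57 (22549713 to 22550068), with 80. These stood above 99.3% and 99.2% of the other loci. In the ABL1 interval the 3 loci had 35 reads (1252 bp from the start of EXOSC2, a subunit of the RNA exosome), 49 (intron 6 of EXOSC2) and 48 (intron 1 of ABL1).

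Loci in few tables were among the richest in sgGal4 reads too. A window in an exon of NUP214, a nuclear pore protein, 62 bp from the start of one of its transcripts (chromosome 9, 134053648 to 134053947), was listed for sgHS2-sg2 only. It had 120 reads in the guide library and 47, 94, 8 and 8 in sgGal4 replicates 1 to 4. The guide library lay above all 4 sgGal4 libraries on the log2 scale, but the log2 ratio of 1.25 did not pass (limma adjusted p = 0.215). A locus in intron 8 of LAMC3, a laminin chain (133922090 to 133922419), had 76 reads for sgHS3-sg2 and 34, 14 and 22 for sgHS3, against medians of 23, 91, 9 and 9 in sgGal4. Its log2 ratio was 0.98 for sgHS3-sg2, whose library lay above all sgGal4 libraries, and -0.32 for sgHS3, whose libraries overlapped them; neither passed by limma. At the start of ZNF280B, a zinc finger gene of the lambda locus, 26 bp from a transcript start (chromosome 22, 22862937 to 22863299), the ratios were -0.06 for sg3'HS1 and 0.13 for sgHS2-sg2. None of the windows of these 3 loci passed the test in any table.

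The log2 ratio of guide over sgGal4, from the mean linear levels, was compared with that of the other regions. A region was called raised with a ratio of at least 1 and a limma adjusted p below 0.05, and below sgGal4 with a ratio of -1 or less and the same p; p-values were adjusted over the whole table. Of the 260 interval entries, 4 (1.54%) were raised, and 1.66% of all entries were. With no p limit 20 (7.69%) had a ratio of at least 1, where 17.3% of all entries did. Below sgGal4 lay 21 (8.08%), where 11.2% of all entries did, and 75 (28.8%) had a ratio of -1 or less, where 25.3% of all did. The share raised was thus near the background. Without sgGal4 replicate 1 the counts were 1 raised and 10 below, without sgGal4 replicate 2 they were 2 and 11, without sgGal4 replicate 3 they were 6 and 11, and without sgGal4 replicate 4 they were 5 and 10. Without guide replicate 1 they were 2 and 11, and without guide replicate 2 or 3 there were 2 raised. Calls moved over whole tables too. Without sgGal4 replicate 1 the regions below went from 779 to 0 for sgHS1, and without replicate 3 those raised went from 9 to 1331 for sgHS1-5. Shares over all entries were not computed for these settings. When a guide replicate was left out, tables with 1 guide library or without that number kept their main calls. Of the 21 below, 8 were in tables with 1 guide library. The median ratio of the interval regions was lower than that of the other regions in 11 of 17 tables and higher in 6. The difference had a median of -0.36 over tables, between -1.30 for sgHBD-1kb and 0.71 for sgHS1.

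Restricted to loci in all tables, the ratios of the interval loci were higher than those of the other such loci, in 16 of 17 tables. The 4 sgGal4 libraries are in every table and in every ratio, and a locus could be listed in all tables through its sgGal4 reads, so these differences are a description only. The difference of medians was 0.60 (median over tables), between -0.08 for sg3'HS1 and 0.98 for sgHS2-sg2. In the pool sgHS1-5, with 6 guide libraries, the median ratio was 0.12 at the 12 interval loci and -0.43 at the others. Ratios were negative in 75.5% of 204 entries in the intervals and in 90.3% of 63461 elsewhere. Of the 204 entries, 21 (10.3%) were below sgGal4, where 25% of all entries at loci in all tables were. With no p limit, 75 (36.8%) had a ratio of -1 or less, where 55.8% of all such entries did. Limma called 0 of them raised, where 0.0377% of all such entries were; 53 (25.98%) had an unadjusted p below 0.05, where 47.4% of all such entries did, and 0 of these 53 had a ratio above 0, where 0.239% of all such entries had that p and such a ratio. A ratio of at least 1 was seen once, 1.20 near IGLV3-1 for sgHBB. Over all 260 entries, 68 (26.2%) had an unadjusted p below 0.05, where 31.5% of all entries did.

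The 12 loci in all tables differed among themselves. The locus at 23331647 to 23331946, 67030 bp from the constant segment IGLC7, had the lowest median ratio, -1.86, and was negative in all 17 tables. In sgGal4 replicates 1 to 4 it held 14, 21, 12 and 7 reads. The single sgHS2-sg2 library held 0 reads there, and its ratio of -4.93 was the lowest of any interval region (limma adjusted p = 0.0288). For sgHBG-sg2 the libraries held 2 and 3 reads, a ratio of -2.89 (limma adjusted p = 0.0107). All of these guide libraries lay below every sgGal4 library on the deposited log2 scale. The third lowest ratio that passed was -2.61 for sgHS2-sg2 at 22541297 to 22541596, 8752 bp from IGLV6-57 (limma adjusted p = 0.0429), with 2 reads in the guide library against 9, 24, 2 and 4 in sgGal4. None of these 3 calls held in every alternative: leaving out any 1 sgGal4 library ended both calls of sgHS2-sg2 (adjusted p of 0.0589 to 0.0794 at the first locus and 0.0745 to 0.0979 at the other), and leaving out either guide library ended that of sgHBG-sg2 (0.0726 and 0.084). Without any 1 sgGal4 library the whole sgHS2-sg2 table lost its calls. Of the 21 entries below sgGal4, 6 were at the first of these loci and 8 came from tables with 1 guide library, whose spread was assumed to equal that of sgGal4.

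Other loci had ratios near 0. PRAME had a median ratio of 0.25 and was negative in 3 of 17 tables. At its window, the 6 pool libraries held between 10 and 246 reads, and the ratio was 0.43 (limma adjusted p = 0.474). The 7 loci with the highest median ratios lay between -0.58 and 0.25, and the 5 lowest between -1.86 and -1.13. Spearman's rho of median ratio with GC content was 0.62 over the 12 loci and 0.75 over the 3733 others. Its rho with the share of sgGal4 reads that came from the shallow replicates 3 and 4 was -0.69 over the 12 loci and -0.27 over the others. All these points share the same libraries and table scales. Of the bases of the lowest window 27.3% are G or C, and 0.852% of the regions in the sgHS2-sg2 table had as low a share; its 1 CG dinucleotide is marked in the sequence above. The 5 lowest loci drew 6.12% to 35.2% of their sgGal4 reads from those replicates and the other 7 drew 8.09% to 20.8%, against a median of 9.09% at the loci in all tables outside the intervals. The part of base composition and of those replicates in these ratios was not tested.

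**Figure D4:**
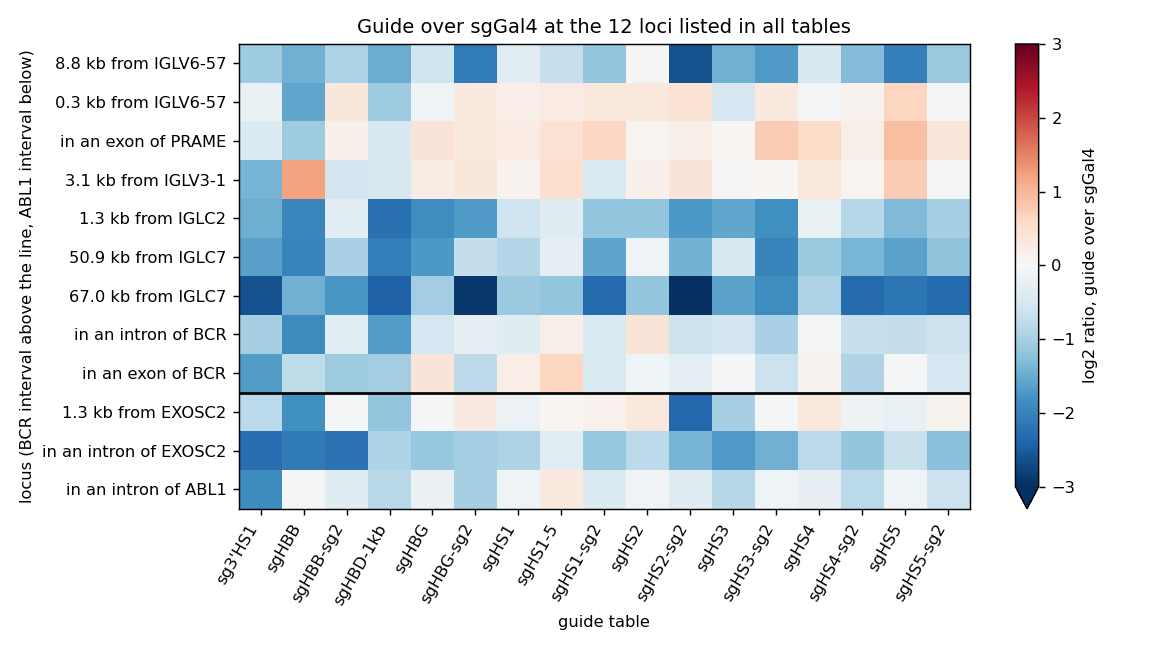
Log2 ratio of guide over sgGal4 at the 12 interval loci listed in all tables (rows, in order along each chromosome) in each of the 17 guide tables (columns); colours stop at -3 and 3. The row 67.0 kb from IGLC7 is negative in every table, down to -4.93 for sgHS2-sg2, while the PRAME row is negative in 3 tables.

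Of the loci in all tables, 2 lay in BCR itself and 1 in ABL1. In K562 the fusion transcript links exon 14 of BCR to the second exon of ABL1. The last exon of BCR, and EXOSC2 upstream of ABL1, are not part of that transcript, and the intervals hold loci at both. Whether those loci share in the extra copies was not tested. The first BCR locus (23632160 to 23632596) lay in intron 13 and, in the window of sgHBD-1kb, took in 71 bases of exon 14 (23632526 to 23632600), in capitals here because the fusion joins this exon to ABL1.
BCR window with exon 14, chromosome 22, 23632297 to 23632596: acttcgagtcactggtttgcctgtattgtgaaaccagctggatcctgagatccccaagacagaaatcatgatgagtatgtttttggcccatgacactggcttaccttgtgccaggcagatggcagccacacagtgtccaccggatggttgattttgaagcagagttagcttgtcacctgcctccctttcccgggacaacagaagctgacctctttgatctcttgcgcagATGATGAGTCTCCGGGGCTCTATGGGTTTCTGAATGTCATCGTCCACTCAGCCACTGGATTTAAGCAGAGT
For sgHBD-1kb this window held 6 and 1 reads, against 13, 25, 3 and 4 in sgGal4 replicates 1 to 4, a ratio of -1.68 (limma adjusted p = 0.0347), with no overlap between the groups on the log2 scale. For sgHBB the overlapping window (23632160 to 23632459) held 5 reads against 15, 28, 2 and 2, a ratio of -1.90 (limma adjusted p = 0.0287). The sgHBD-1kb call was lost without sgGal4 replicate 1, 2 or 4 (adjusted p of 0.0626, 0.0578 and 0.0501) or either guide library (0.102 and 0.247), and the sgHBB call without sgGal4 replicate 1 or 2 (0.0713 and 0.0753). Without either sgHBD-1kb library, calls were lost over that whole table and not at this window alone. The sgHBB call was also lost on recovered reads, with ratios of -2.10 and -1.34 for pseudocounts of 1 and 5. There all calls below sgGal4 in the sgHBB table were lost. In the other 15 tables the locus did not pass and its ratios reached 0.38, for sgHS2. The ABL1 locus (133607569 to 133608002), in intron 1, passed in no table by limma, with ratios between -1.89 for sg3'HS1 and 0.29 for the pool. The locus in the last exon of BCR, exon 23 (23657783 to 23658159), had 31 sgGal4 reads and likewise passed in no table, with ratios between -1.67 and 0.63. The intron 6 locus of EXOSC2 was below sgGal4 in 4 tables. Among them was that of sgHBB-sg2, with 2 and 1 reads against 16, 29, 1 and 2, and a ratio of -2.22 (limma adjusted p = 0.00681). That call was lost without guide replicate 1, as were all calls in that table, and the ratio was -1.83. On recovered reads it was lost too, with ratios of -2.05 and -1.16 for pseudocounts of 1 and 5 (limma adjusted p of 0.161 and 0.171). There no region of that table was called below sgGal4. The lowest ratio in the ABL1 interval was -2.35, for sgHS2-sg2 at 133567751 to 133568050, 1252 bp from EXOSC2, with 2 reads against 13, 19, 3 and 0, and it did not pass (limma adjusted p = 0.101).

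All 4 raised entries lay at loci that few tables listed, among 56 entries there; such entries could be listed through the guide libraries alone, so this share supports nothing. The highest was the sgHBG window at 22978827 to 22979126, 8108 bp from GGTLC2, a gamma-glutamyltransferase light chain gene. It held 31, 13, 19 and 36 reads in the sgHBG libraries and 0 in each sgGal4 library. Every guide library lay above every sgGal4 library, the log2 ratio was 3.30 and the limma difference of mean log2 levels was 4.14 ± 0.83 (SE), with an adjusted p of 0.0128. Since 0 reads stand at levels between -1.72 and 2.31 on the scale of the authors, this ratio is no bound on a fold of reads. In the table of sgHBG, 4.94% of regions were raised, and the window ranked 55th by ratio. Its call held without any 1 of the libraries. A window that overlaps it (22978680 to 22978979) was listed for sgHS3-sg2, with 29 reads in the guide library, and its ratio of 2.34 did not pass (limma adjusted p = 0.0824).

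The sgHBG and sgHS3-sg2 tables also shared a locus just beyond BCR, 72440 bp from the nearest BCR start (23668438 to 23668945), again with 0 reads in all sgGal4 libraries. There sgHBG had 8, 2, 2 and 12 reads, a ratio of 1.28 (limma adjusted p = 0.112), and sgHS3-sg2 had 7 reads, a ratio of 0.43. Of the sgHBG loci with 0 sgGal4 reads, 35 of 183 (19.1%) were also listed for sgHS3-sg2, and of such sgHS3-sg2 loci 34 of 192 (17.7%) were listed for sgHBG. Among the other tables the next highest share was 9.90%, for sgHBG-sg2. Loci with 0 sgGal4 reads could be listed through the guide libraries alone, so these shares are a description only and support nothing. The share of all loci common to each pair was not computed.

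The second raised entry was beside the ABL1 start. The window for sgHS3 (133587981 to 133588280) lies 300 bp upstream of the annotated start of ABL1, at 133588430. It held 9, 4 and 10 reads in the sgHS3 libraries and 0, 2, 0 and 0 in sgGal4 replicates 1 to 4. The groups did not overlap, the ratio was 2.01 and the limma difference 2.41 ± 0.73 (SE), with an adjusted p of 0.0469, in a table where 6.44% of regions were raised. The call was lost without any 1 of the guide libraries (limma adjusted p of 0.094, 0.107 and 0.151) and without sgGal4 replicate 1 or 2 (0.0947 and 0.0886). Without guide replicate 1, 2 and 3 in turn, 12, 9 and 9 of 7777 regions of the table were raised, against 501 with all libraries. The call at this window was also lost with an intensity trend in limma (adjusted p = 0.0608). Of its bases 66.3% are G or C, and it holds 24 CG dinucleotides, a number that 18.6% of the regions of that table reach. Windows overlapping it were listed in 5 tables. The ratio was 1.56 for sgHS1-sg2, 1.59 for sgHS4, 1.84 for sgHBD-1kb and 2.24 for sg3'HS1, the highest of the ABL1 interval, and none of these passed by limma. Ratios were above 1 in all 5 tables that listed this locus, where sgGal4 had 2 reads in all. Such a locus could be listed through the guide libraries alone, so these ratios support nothing about agreement between guides. The tables also share those sgGal4 libraries.

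The third raised entry was in intron 1 of BCR (23593877 to 23594176), listed for sgHBD-1kb only. It held 51 and 37 reads in the sgHBD-1kb libraries and 8, 16, 4 and 3 in sgGal4 replicates 1 to 4. The groups did not overlap, the ratio was 1.95 and the limma difference 2.02 ± 0.51 (SE), with an adjusted p of 0.0226, in a table where 9.45% of regions were raised. On recovered reads the ratio was 1.22 with a pseudocount of 1 and 1.02 with a pseudocount of 5, and neither passed (limma adjusted p of 0.181 and 0.0782). The call was lost without sgGal4 replicate 1 (limma adjusted p = 0.0535) and without either guide library. With 1 guide library left, the ratios were 1.908 and 1.995, and calls were lost over the whole table. The run of 8 bases and NGG in capitals above (TTCCAAAG read on the minus strand) also occurs in the on-target window of sgHBD-1kb, and 3.97% of the other regions of the table share a run of at least 8 with it. The guide sequence was not used here, so the run is not known to belong to it.

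The fourth was 300 bp from IGLV1-51, a lambda variable segment (22676379 to 22676678). It held 14, 3, 27 and 41 reads in the sgHBG libraries and 3, 8, 1 and 0 in sgGal4 replicates 1 to 4, a ratio of 1.85 and a limma difference of 1.89 ± 0.50 (SE), with an adjusted p of 0.0254. On the log2 scale the lowest sgHBG library, at 3.41, lay just above the highest sgGal4 library, at 3.19. The call was lost without guide replicate 3 or 4 (limma adjusted p of 0.0789 and 0.0776) and without sgGal4 replicate 1 or 2 (0.0679 and 0.0503). It was also lost on recovered reads with a pseudocount of 1 (limma adjusted p = 0.0502). Windows overlapping it had ratios of 1.40 for sgHBG-sg2, 1.36 for the pool, 1.78 for sgHS5 and 0.81 for sgHS4, none of which passed by limma.

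The highest ratios in the intervals did not pass the test. For sgHS5 the window 6134 bp from IGLV1-40 (22757814 to 22758113) held 475, 176 and 128 reads in the guide libraries and 3, 5, 2 and 1 in sgGal4. Its ratio was 5.08, the 12th highest of the table, and the groups did not overlap, but the limma adjusted p was 0.0601. The window in intron 3 of RSPH14, a radial spoke protein of cilia (23480187 to 23480486), held 310, 63 and 26 reads for sgHS5 and 5, 11, 1 and 2 for sgGal4. Its ratio was 3.96, the SD of the log2 levels was 2.47 over the 3 guide libraries, and the limma adjusted p was 0.253. Limma called 0 of 16655 regions raised in the sgHS5 table, with 2605 at an unadjusted p below 0.05; with an intensity trend it called 29. The RSPH14 window shares ACAGGGAC and NGG with the HS5 on-target window, as do 9.34% of the other regions of the table with runs of at least 8, while the window near IGLV1-40 shares runs of 5, which 85.3% of regions reach.

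**Figure D5:**
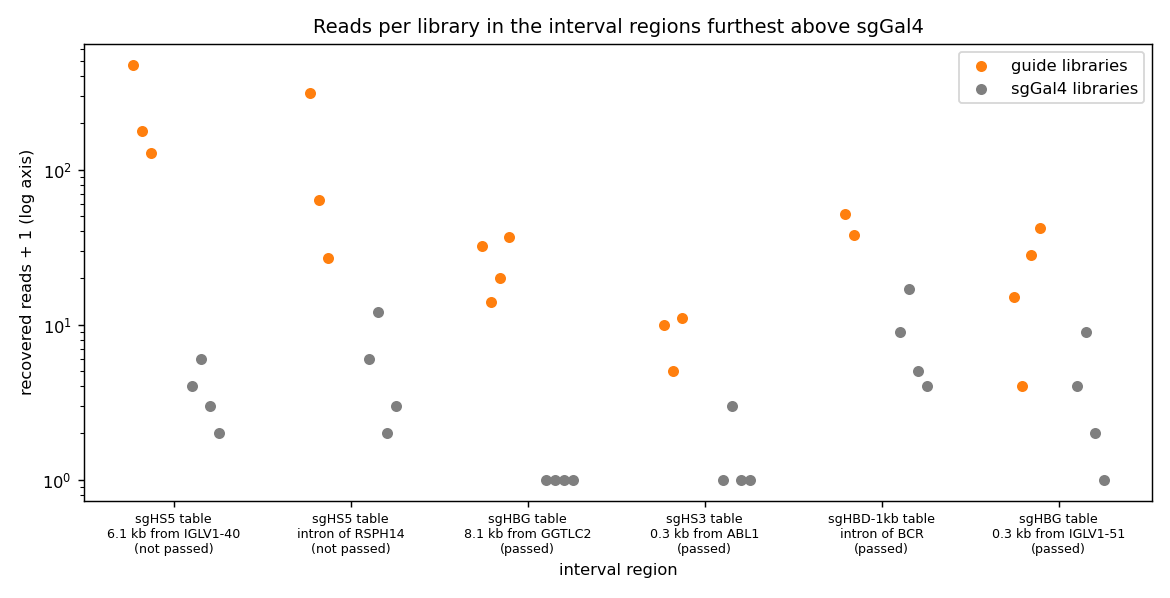
Recovered reads plus 1 (log axis) in each guide library, left, and each sgGal4 library, right, of the 4 raised interval regions and the pair of sgHS5 regions with higher ratios that did not pass. In the sgHBG region near GGTLC2 all sgGal4 libraries are at 0 reads and the guide libraries lie between 13 and 36.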

How the data were processed

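The authors deposited, per the file headers, 17 tables of 300 bp regions in which every guide or sgGal4 library has its own column. Reads aligned to a single place in hg19, per the labels' protocols, with Bowtie 1.0.0 and Picard, per the submitters' processing notes; no source used here names the region caller or the scaling. The deposited unit is, judging by the values, log2, with a scale that differs between tables, so each test stayed within a table. Within a column the levels rise linearly with log2 of an integer, and 100% of values came out whole within 0.01; the whole number less 1 was taken as reads. The slope of that line ran between 0.596 and 1.38, so log2 ratios are not ratios of reads.

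Levels were compared with limma 3.58.1 in R 4.3.3, with Benjamini-Hochberg adjustment over each table. The ratio, recomputed from linear means, differed from the deposited one by at most 1.39e-08. The fit was tested on simulated data. Genes came from GENCODE 44 lifted to GRCh37. Regions named were those raised, the 3 lowest below sgGal4, the most often listed, those with most sgGal4 reads, the extremes of each interval and those within 1 kb of a start of a listed gene; the other loci described, and the pair of sgHS5 windows as a group, were chosen after their values were seen. Intervals, lists and rules were chosen with earlier results of these data known. Of 61 samples, 15 were not analysed here.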

Additional observations from a re-analysis of the deposited data

How the results depend on the processing

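The counts of calls moved with the processing more than the levels did. Calls over whole tables moved as well, in both directions. With a pseudocount of 1 the regions below sgGal4 went from 1518 to 0 for sgHBB-sg2 and from 0 to 617 for sg3'HS1. Shares over all entries were not computed for the alternatives, so the counts below are not read as a trait of the interval regions. On recovered reads with a pseudocount of 1, 8 interval regions were raised and 9 below sgGal4; with a pseudocount of 5, 10 were below and 13 had a ratio of at least 1. With regions of a mean under 10 reads left out, 8 were below and 10 had a ratio of at least 1. An intensity trend in limma put 34 below. Leaving out 1 library number at a time gave 1 to 6 raised, 10 to 21 below, 17 to 24 with a ratio of at least 1, median differences of -0.37 to -0.14, and sgGal4 folds of 2.60 to 2.83. When a guide replicate was left out, tables with 1 guide library or without that number kept their main calls in these ranges. With bounds drawn in by 100 kb, 12 were below, 12 had a ratio of at least 1 and the sgGal4 fold was 3.52. In the BCR interval only, 13 had a ratio of at least 1. In the ABL1 interval only, 1 was raised, 4 were below and 7 had a ratio of at least 1, the sgGal4 fold was 1.93 and the density 0.981 times that of the rest of chromosome 9. Against flanks of the same length the density was 0.846 times theirs. With median reads the sgGal4 fold was 2.31. Some alternatives were chosen after seeing the data. With loci in all tables only, the density was 4.80 times that of the pooled rest of chromosomes 22 and 9 (3.08 with bounds also drawn in by 100 kb). Against its own chromosome it was 4.08 times for the BCR interval and 3.96 times for the ABL1 interval. With these loci the guide fold was 3.26 and the median difference of ratios 0.60, the opposite sign. With tables of 2 or more guide libraries only, 13 were below. The cause of these moves was not tested.

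Whether replicate numbers pair the libraries is not settled. Of 36 same-numbered correlations, between -0.25 and 0.22, 5 were above 0.1. In the tables with at least 3 shared numbers, 4 of 18 guide libraries varied most like the sgGal4 library of their own number. Pool replicates 1 to 4 held 196951, 348211, 20918 and 20447 reads, deep and shallow by number as in sgGal4 (88378, 163456, 18353 and 18413). Those of sgHBG, with 67063, 17857, 58827 and 106873, did not follow that order. A shared batch was not tested. With the replicate block, which tables with 1 guide library could not take, 10 interval regions were raised and 25 were below. Of the 25 called entries, 1 kept its call under every alternative run for it, the sgHBG window near GGTLC2 (limma adjusted p up to 0.044), and 0 changed sign. This window had 0 reads in each sgGal4 library and could be listed through the guide libraries alone, so its stability supports nothing. Of the 260 entries, 216 had under 50 reads in every sgGal4 library, which limits the test of small differences.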

Other observations

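Of the 37 loci of the BCR interval, 23 had a segment of the immunoglobulin lambda locus as the nearest annotated start, and 28 lay between genes, 5 in introns and 4 in exons. In the ABL1 interval 3 loci lay in exons, 3 in introns and 2 between genes. Within 1 kb of the start of a protein-coding gene were 3 of 45 interval loci (6.67%), against 20.7% of the other loci; their median GC content was 54.0%, against 51.7%, and their median number of CG dinucleotides 3.25, against 5.67.

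PRDM12, which encodes a zinc finger transcription factor of sensory neurons, had a pair of windows in its exons, 1 for sgHS1-sg2 and 1 for sgHS4, that do not overlap. For sgHS1-sg2 (chromosome 9, 133556890 to 133557189) the guide libraries held 15 and 9 reads, against 0, 0, 1 and 1 in sgGal4, a ratio of 1.03 (limma adjusted p = 0.282). For sgHS4 (133556570 to 133556869) they held 17 and 1 reads, against 1, 2, 0 and 0, a ratio of 0.85 (limma adjusted p = 0.43). Neither passed the test. They were chosen after their values were seen.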
